A study of Rattus norvegicus with 24 samples.

Results

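The SLC25 family of mitochondrial carriers was followed in polyA RNA from cultured neonatal rat ventricular myocytes, the heart muscle cells of newborn Sprague-Dawley rats. The deposited count table held 46 symbols of the form Slc25a followed by a number, among 21767 gene symbols, and the 38 with a mean of at least 1 CPM, the counts scaled to library size, over the 24 libraries are described. The lowest members were Slc25a2, at a mean of 1.09 CPM, and Slc25a35, at 1.14 CPM. Of the 8 symbols left out, the highest were Slc25a45, at 0.729 CPM, and Slc25a43, at 0.538 CPM, and Slc25a31, the testis form of the ADP/ATP carrier, was at 0 in all 24 libraries. All 38 members were among the 14303 genes tested, so none was lost to the filter on low counts.

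All cells carried a microRNA mimic, a double-stranded RNA that acts as the named microRNA, delivered with a lipid reagent one day after plating at 5 nM each. There were 8 groups of 3 libraries: a negative control mimic, miR-222, miR-455 or both mimics, each without doxorubicin and with doxorubicin, an anthracycline cancer drug that is toxic to heart muscle. Treatment began 48 h after transfection and lasted 24 h. The doxorubicin dose is not settled, since the sample protocol gives 4 uM and the series text 4 mM. Cells given both mimics received 5 nM of each, and no group without any mimic was analysed here. Which animals or cultures gave the replicates is not named, and a p-value here sets a difference against the spread of the 3 libraries alone, which may be technical.

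SLC25 proteins sit in the inner mitochondrial membrane and exchange the nucleotides, phosphate, metabolites and cofactors that mitochondria take up or release, and each is encoded in the nucleus. In heart muscle they export newly made ATP, bring fatty acids in as carnitine esters and run the malate-aspartate shuttle that carries reducing equivalents into the mitochondrion. A few members work elsewhere, such as Slc25a17 in peroxisomes and Slc25a46 in the outer membrane.

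The mimics were of the 3p arms, and microRNAs choose their targets mainly through the seed, bases 2 to 8. The rat mature sequences in RefSeq (build GRCr8) are shown because every mimic comparison turns on them, with the seed in capitals. The sequence of the commercial mimics themselves was not used here.
rno-miR-222-3p: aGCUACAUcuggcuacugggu
rno-miR-455-3p: gCAGUCCAcgggcauauacacu
These mature sequences lie at X:6022682-6022702 and 5:81704881-81704902 on the plus strand. The seeds, GCUACAU and CAGUCCA, are unrelated, so no group shares a seed with another except through the combination. Target sites in the carriers were not searched.

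Library totals ran from 17311955 to 25750311 counts, between 11469 and 13524 genes reached 10 counts in a library, and transcripts of the mitochondrial genome took 5.54% to 38.2% of the counts. Of the 10 cardiomyocyte markers listed, 9 were in the table and none was at 0 in any library, and fibroblast markers were high as well, with a summed level of 15009 to 55051 CPM. The erythroid markers summed to 0 to 9.32 CPM. In 3 untreated groups a pair of libraries was much more alike than any other pair. For libraries 1 and 2 with miR-222, 1 and 3 with miR-455, and 1 and 2 with both mimics, the chi-square of the counts per degree of freedom was 5.79, 6.98 and 7.80, against 126 to 575 for the other pairs of those groups. The 3 libraries with miR-455 and doxorubicin were also alike, at 7.81 to 9.79. Sampling noise alone gives about 1, so the alike libraries differed by more than that. These values cannot tell whether they came from the same culture or RNA. All were kept as separate libraries in the main fit. Each count below was also made with the close pairs summed, and with the miR-455 libraries under doxorubicin summed as well.

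Values per library are CPM scaled by edgeR's TMM factors, given for libraries 1, 2 and 3 in that order. The factors were 0.572 to 1.01 in the doxorubicin libraries and 1.04 to 1.37 in the untreated ones. Counts are divided by them, so this scaling raised every doxorubicin library against every untreated one. The size of each doxorubicin change and the overlap of groups rest on scaled values. DESeq2's size factors were the only other scaling used, and unscaled changes were not tested. A value after a gene name marked ± SE is its log2 fold change, and a gene is said to have risen or fallen where edgeR's quasi-likelihood F test gave a Benjamini-Hochberg adjusted p under 0.05 over all 14303 genes. In RNA from whole cultures, fewer cells of a type and less RNA per cell cannot be told apart.

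Doxorubicin with the control mimic raised 8 of the 38 carriers and lowered 3, or 28.9% of the family, close to the 27.5% of all tested genes that were called (15.2% higher and 12.3% lower). The 8 that rose were the phosphate carrier Slc25a3, the ADP/ATP carriers Slc25a4 and Slc25a5, the oxoglutarate carrier Slc25a11, the carnitine carrier Slc25a20, the ATP-Mg carrier Slc25a23, the glycine carrier Slc25a38 and the oxodicarboxylate carrier Slc25a21. The 3 that fell were the aspartate-glutamate carrier Slc25a12, the uncoupling protein relative Slc25a30 and the NAD carrier Slc25a51. The median log2 fold change was 0.33 over the 38 members and 0.02 over all genes tested. For 10 members every doxorubicin library lay above every untreated one and for 2 every one lay below, against 16.3% and 17.3% of all genes.

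Doxorubicin was also compared with no drug in the cells given miR-222, miR-455 or both. Of the 38, 1 rose and 2 fell with miR-222, where 14.6% of all genes were called (7.76% higher and 6.87% lower). With miR-455 1 rose and 3 fell, where 18.1% were called (9.02% higher and 9.11% lower), and with both mimics 1 rose and 2 fell, where 15.1% were called (7.85% higher and 7.24% lower). The order of these counts turned with the fit. Fitting only the groups compared called 6 members for the control mimic and 13, 12 and 0 for miR-222, miR-455 and the combination. Over all genes these fits called 1437 of 12898, 4785 of 13278, 5419 of 13272 and 5 of 13028. Leaving out the 4 libraries of fewest genes called 14, 14, 12 and 12 members, where 5483, 4906, 5545 and 4757 of 14459 genes were called. The untreated combination was then only its close pair. The median change of the members was -0.04, -0.20 and -0.40 in the 3 comparisons with a microRNA mimic. Averaged over the 4 mimic conditions, 7 members rose and 9 fell, 42.1% of the family beside 48.1% of all genes (23.8% higher and 24.3% lower). Of the 38, 14 were called in at least 1 of the 4 doxorubicin comparisons, and 4 in more than 1, among them Slc25a3, Slc25a12 and Slc25a30. Counts of this kind were not made over all genes.

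**Figure D1:**
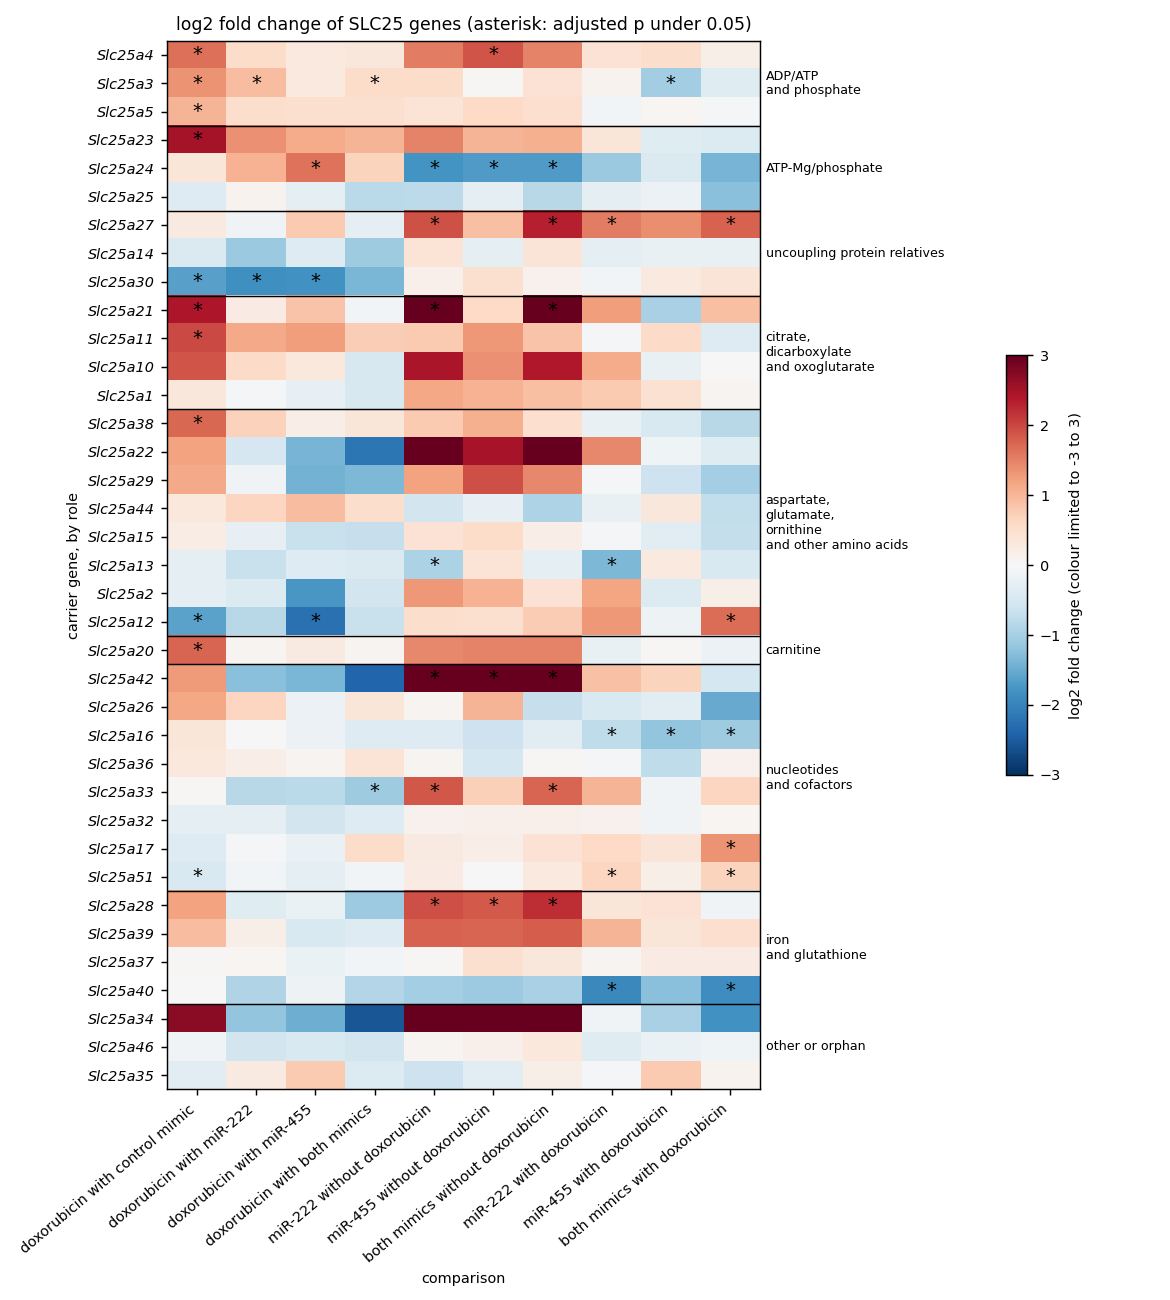
Log2 fold change of SLC25 members (rows, grouped by role) in the 10 pairwise comparisons (columns: doxorubicin against none with each mimic condition, and the 3 microRNA mimic conditions against the control, first untreated and then treated). Cells with an asterisk passed edgeR's test at an adjusted p under 0.05, and 17 rows hold no asterisk.

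The carriers that link ATP synthesis to the rest of the cell rose together with doxorubicin and the control mimic. Slc25a3 imports the phosphate that ATP synthase uses. Its level was 749, 791 and 964 CPM without doxorubicin and 2218, 1980 and 2198 CPM with it. All 3 doxorubicin libraries were far above the highest untreated one, a log2 fold change of 1.35 ± 0.17 (SE, adjusted p = 1.15e-05, edgeR), and this was the smallest p of any member in this comparison. The call held in each of the 6 fits that left out 1 library.

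Slc25a3 also rose where miR-222 was present, from 1276, 1289 and 1075 CPM to 2126, 2403 and 2353 CPM (0.92 ± 0.17, edgeR adjusted p = 0.00103). With both mimics it rose from 1227, 1265 and 904 CPM to 1753, 1659 and 1541 CPM. That rise was 0.54 ± 0.17 (edgeR adjusted p = 0.0346), and the call was lost in 5 of 6 fits without 1 library, all but the one without replicate 2 of the untreated group. With miR-455 alone the levels were 823, 839 and 911 CPM before and 1029, 1064 and 1033 CPM after, a log2 fold change of 0.28 ± 0.17 that was not called (edgeR adjusted p = 0.284), although the groups did not overlap.

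Slc25a4 is the ADP/ATP carrier of heart and skeletal muscle. With the control mimic it stood at 601, 723 and 990 CPM untreated and at 2330, 1471 and 3490 CPM with doxorubicin. The groups did not overlap, but the 3 doxorubicin libraries spread widely, and the rise of 1.66 ± 0.49 (edgeR adjusted p = 0.0155) was lost without doxorubicin replicate 3 or without untreated replicate 1 or 2. Slc25a5, the form found in most tissues, went from 263, 247 and 347 CPM to 567, 532 and 648 CPM, with no overlap. That was a rise of 1.03 ± 0.19 (edgeR adjusted p = 0.000608), called in all 6 fits without 1 library. With miR-222, miR-455 or both mimics neither Slc25a4, at 0.55, 0.30 and 0.35, nor Slc25a5, at 0.53, 0.49 and 0.47, passed the test for doxorubicin, and these untreated groups already held libraries well above the control mimic for Slc25a4.

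Slc25a23 and Slc25a24 exchange ATP-Mg for phosphate under the control of calcium and so set the size of the mitochondrial adenine nucleotide pool. Slc25a23 stood at 9.20, 32.4 and 43.3 CPM with the control mimic and at 84.1, 174 and 222 CPM after doxorubicin. Both groups had replicate 1 as the lowest library and did not overlap. The log2 fold change of 2.50 ± 0.52 (edgeR adjusted p = 0.00135) was the largest among the members called. With miR-222 the values were 88.8, 84.1 and 64.6 CPM untreated and 198, 202 and 216 CPM treated, which did not pass (1.38 ± 0.50, edgeR adjusted p = 0.0706). Slc25a24 rose in the miR-455 cells, from 13.6, 42.5 and 15.8 CPM to 74.9, 76.8 and 70.8 CPM (1.63 ± 0.43, edgeR adjusted p = 0.0114), and was not called in the other 3 mimic conditions. The third member of this role, Slc25a25, did not pass in any comparison, and its 3 control mimic libraries with doxorubicin were at 0, 17.1 and 10.9 CPM.

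**Figure D2:**
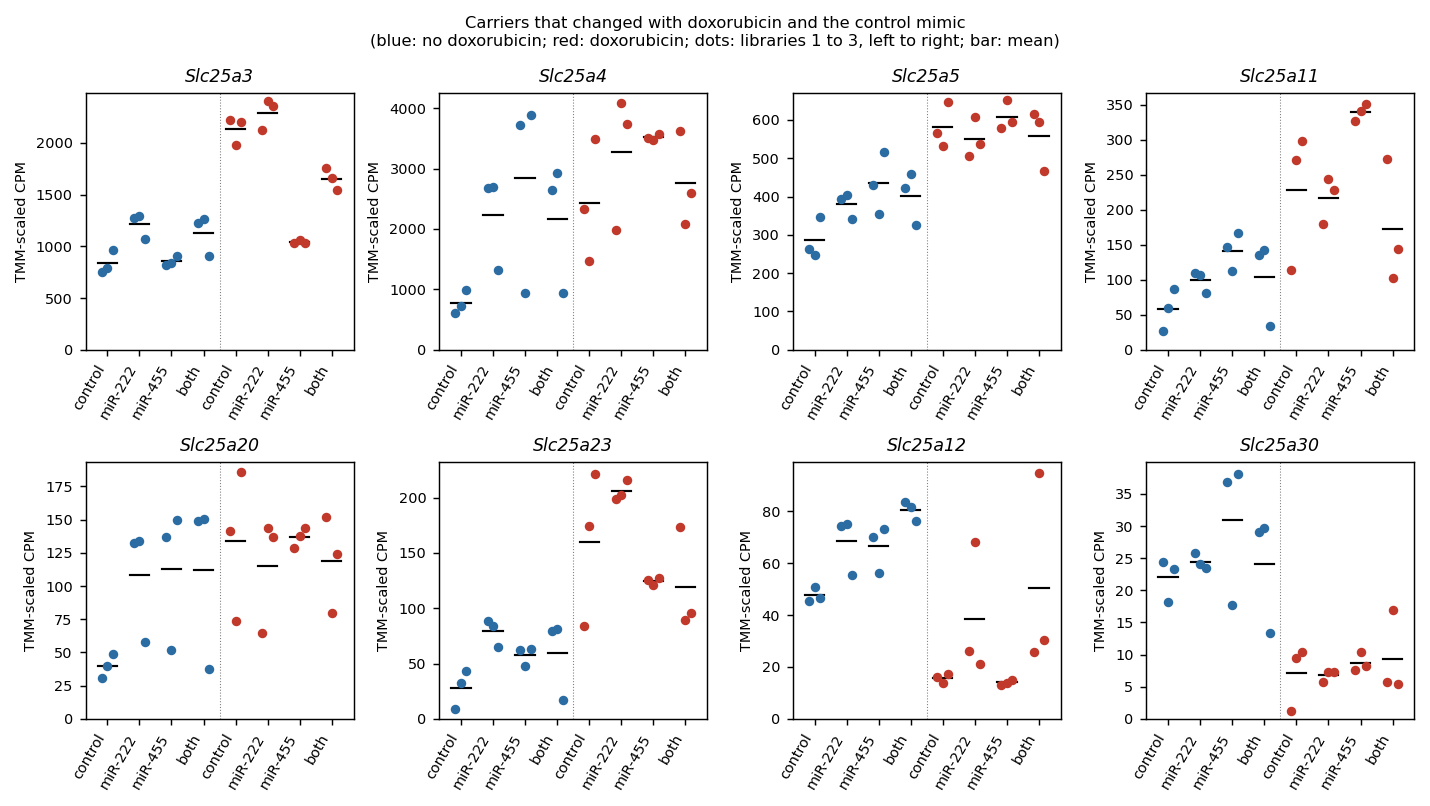
TMM-scaled CPM (vertical axis, linear from 0) of 8 carriers in every library of the 8 groups, with untreated groups in blue on the left and doxorubicin groups in red on the right of each panel; bars are group means. Slc25a3 lies between 1980 and 2218 CPM in the doxorubicin libraries with the control mimic and between 1029 and 1064 CPM in those with miR-455.

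Of the 4 carriers for citrate, dicarboxylates and oxoglutarate, 2 rose with doxorubicin and the control mimic and none fell. Slc25a11 exchanges oxoglutarate for malate in the malate-aspartate shuttle, and it moved from 26.7, 60.1 and 86.8 CPM to 114, 271 and 298 CPM. The lowest treated library was above the highest untreated one, a rise of 1.98 ± 0.48 (edgeR adjusted p = 0.00465) that held without any 1 library. With miR-455 the treated libraries were higher still, at 327, 341 and 351 CPM against 147, 112 and 166 CPM. This difference, 1.26 ± 0.47, missed the threshold (edgeR adjusted p = 0.0703). Slc25a1, the citrate carrier that supplies acetyl units for lipid synthesis, was at 13.9, 18.3 and 30.5 CPM untreated and 14.1, 31.7 and 33.5 CPM treated, with overlap and no call (0.34 ± 0.47, edgeR adjusted p = 0.634). Slc25a10, the dicarboxylate carrier, was above in all 3 treated libraries but did not pass (1.89 ± 0.78, edgeR adjusted p = 0.0763). Slc25a21, which carries oxodicarboxylates, rose by 2.44 ± 0.83 (edgeR adjusted p = 0.0345) at no more than 2.42 CPM in any library of the comparison, its groups overlapped, and the call was lost without any of 4 libraries, replicates 1 and 3 of each group.

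The aspartate-glutamate carriers form the other arm of the malate-aspartate shuttle. Slc25a12, the calcium-stimulated aspartate-glutamate carrier of heart and brain, was at 45.4, 50.7 and 46.7 CPM with the control mimic and at 16.1, 13.8 and 17.3 CPM after doxorubicin. The 2 groups were each tight and far apart, and the fall of 1.60 ± 0.41 on the log2 scale (edgeR adjusted p = 0.00648) held in all 6 fits without 1 library. In the miR-455 cells it fell from 70.0, 56.2 and 73.1 CPM to 13.2, 14.0 and 14.9 CPM (-2.24 ± 0.42, edgeR adjusted p = 0.000909), again with no overlap. With miR-222 the treated libraries were at 26.3, 68.2 and 21.2 CPM and with both mimics at 25.9, 94.9 and 30.2 CPM. Replicate 2 stood apart in each of these groups, reached the untreated level, and neither comparison passed (-0.83 ± 0.40 and -0.68 ± 0.40, edgeR adjusted p = 0.190 and 0.281). Slc25a13, the liver-type form of the same carrier, was not called for doxorubicin in any mimic condition. Its values were 41.7, 38.6 and 35.2 CPM untreated and 39.4, 20.9 and 35.1 CPM treated with the control mimic.

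Among the other amino acid carriers, Slc25a38, the glycine carrier that feeds heme synthesis, was at 2.34, 4.60 and 8.80 CPM untreated and 8.08, 21.7 and 21.6 CPM treated. Replicate 1 was the lowest in both groups and the groups overlapped slightly, yet the rise of 1.71 ± 0.44 (edgeR adjusted p = 0.00653) held in all 6 fits without 1 library. Slc25a20 exchanges carnitine for acylcarnitines and is the entry of long-chain fatty acids. It was at 30.9, 40 and 49.0 CPM untreated and 142, 73.8 and 186 CPM treated. The groups did not overlap and the rise was 1.74 ± 0.50 (edgeR adjusted p = 0.0132), lost without treated replicate 3 or without untreated replicate 1 or 2. With the mimics present its changes were 0.09, 0.27 and 0.08, none of them called.

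Slc25a30, a relative of the uncoupling proteins, was at 24.4, 18.2 and 23.4 CPM with the control mimic and 1.21, 9.54 and 10.4 CPM with doxorubicin. Each treated library was lower than each untreated one, and the fall was 1.62 ± 0.54 on the log2 scale (edgeR adjusted p = 0.0295), lost without replicate 1 of either group. It also fell with miR-222, from 25.8, 24.1 and 23.5 CPM to 5.76, 7.27 and 7.30 CPM, a change of -1.85 ± 0.54 (edgeR adjusted p = 0.0247), and with miR-455, from 36.9, 17.8 and 38.1 CPM to 7.60, 10.4 and 8.21 CPM, a change of -1.82 ± 0.54 (edgeR adjusted p = 0.0232). Each of these 2 calls was lost in 5 of 6 fits without 1 library. Averaged over the 4 conditions Slc25a30 fell by 1.66 ± 0.27 on the log2 scale (edgeR adjusted p = 3.51e-05), and that call held in all 24 fits without 1 library. Slc25a14, another uncoupling relative, fell only in the averaged comparison (-0.75 ± 0.19, edgeR adjusted p = 0.00306).

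Few of the cofactor and nucleotide carriers described here were called for the drug. Slc25a51, the mitochondrial NAD carrier, fell by 0.47 ± 0.17 on the log2 scale with the control mimic (edgeR adjusted p = 0.049), from 45.3, 53.9 and 40.4 CPM to 32.0, 28.2 and 40.7 CPM, with overlap, and 4 of 6 fits without 1 library lost the call. All of its deposited values were fractional, so its reads were shared with other sequences and its level is uncertain; the same holds for Slc25a22, with 95.8% of values fractional, and Slc25a36, with 87.5%. Slc25a33, a pyrimidine nucleotide carrier, fell with both mimics, from 15.5, 16.1 and 10.8 CPM to 7.35, 6.35 and 6.62 CPM (-1.06 ± 0.35, edgeR adjusted p = 0.0486), a call lost in 5 of 6 fits without 1 library. In the averaged comparison Slc25a32, a folate and FAD carrier, fell by 0.37 ± 0.13 on the log2 scale (edgeR adjusted p = 0.0218). None of the 4 iron and glutathione carriers was called for doxorubicin in any condition. Slc25a37, mitoferrin 1, was at 7.11, 7.06 and 6.65 CPM untreated and 5.05, 7.99 and 8.21 CPM treated with the control mimic (0.03 ± 0.37). Slc25a28, mitoferrin 2, was at 4.51, 7.81 and 9.56 CPM untreated and 11, 20.3 and 19.3 CPM treated. Its groups did not overlap and its change of 1.21 ± 0.46 just missed the threshold (edgeR adjusted p = 0.0541).

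Cell type markers moved with the same contrast. With the control mimic the summed cardiomyocyte markers ran from 23869 to 26310 CPM untreated and from 28676 to 35560 CPM with doxorubicin, without overlap, and the fibroblast markers from 19523 to 30187 CPM and from 24416 to 55051 CPM. Their part in the carriers' changes was not tested. Summing the close pairs left 9 of the 11 members called for doxorubicin with the control mimic, where 3482 of 14579 genes were called. Summing the 3 miR-455 libraries under doxorubicin too also lost the calls of Slc25a4 and Slc25a30, and fewer of all genes were called. Those of Slc25a3, Slc25a5, Slc25a11, Slc25a12, Slc25a20, Slc25a23 and Slc25a38 stayed. With the same sums only Slc25a3 stayed called for doxorubicin with miR-222, and no member with miR-455 or both mimics. Fewer of all genes were called there as well (a group summed to 1 library is assumed to vary like the other groups). Slc25a12 with miR-455 then changed by -2.24 and lost its call. The calls of Slc25a30 with miR-222 and miR-455 and of Slc25a24 were already lost with the close pairs summed.

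Genes that work beside the carriers gave a mixed picture under doxorubicin with the control mimic. Of 16 enzymes of the shuttles that the carriers serve, 10 rose and none fell, where 15.2% of all genes rose; Mdh2, the mitochondrial malate dehydrogenase, rose by 2.31 ± 0.19, Crat, carnitine acetyltransferase, by 2.06 ± 0.29 and Cpt2, which releases fatty acids from carnitine, by 1.73 ± 0.22 (edgeR adjusted p = 1.81e-07, 3.60e-05 and 1.18e-05). Of 19 other mitochondrial transporters 10 rose and none fell, among them Smdt1 at 1.88 ± 0.28 and Micu2 at 1.29 ± 0.23, both parts of the calcium uniporter complex (edgeR adjusted p = 5.39e-05 and 0.000391). Of the 12 genes that import carriers into the inner membrane 3 rose and 4 fell, where 12.3% of all genes fell, and the small chaperones Timm9 and Timm10, which escort carriers across the space between the membranes, fell by 1.21 ± 0.27 and by 1.2 ± 0.29 on the log2 scale (edgeR adjusted p = 0.0026 and 0.00442). Of 11 regulators of mitochondrial genes 4 fell and none rose. The nuclear receptor Esrrg changed by -4.46 ± 0.77 and the coactivator Ppargc1a by -3.31 ± 0.47 (edgeR adjusted p = 0.000251 and 3.41e-05). Of the family's relatives under other names (Ucp1, Ucp2, Ucp3, Mtch1 and Mtch2) 4 were tested and none was called.

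The RefSeq promoters (build GRCr8, from 250 bases before to 50 bases after the start) were searched on both strands for the sites of 4 factors known for mitochondrial genes. The ETS site CCGGAAG, bound by GABPA, was in 6 of the 31 members with a promoter in the table (19.4%) and in 8.75% of all 33469 promoters. Of the 8 carriers raised by doxorubicin with the control mimic 4 held it, and of the 2 lowered ones with a promoter none did. These 4 promoters are shown 5′ to 3′ on the gene's strand, with the site in capitals.
Slc25a3, chr7:27506578-27506877, minus strand: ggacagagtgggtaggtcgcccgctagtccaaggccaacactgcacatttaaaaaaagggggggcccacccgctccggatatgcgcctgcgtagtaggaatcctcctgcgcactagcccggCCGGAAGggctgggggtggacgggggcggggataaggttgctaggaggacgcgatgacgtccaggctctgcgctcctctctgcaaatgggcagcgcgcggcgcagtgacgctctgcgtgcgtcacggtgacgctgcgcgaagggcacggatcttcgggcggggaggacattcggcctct
Slc25a4, chr16:52805271-52805570, plus strand: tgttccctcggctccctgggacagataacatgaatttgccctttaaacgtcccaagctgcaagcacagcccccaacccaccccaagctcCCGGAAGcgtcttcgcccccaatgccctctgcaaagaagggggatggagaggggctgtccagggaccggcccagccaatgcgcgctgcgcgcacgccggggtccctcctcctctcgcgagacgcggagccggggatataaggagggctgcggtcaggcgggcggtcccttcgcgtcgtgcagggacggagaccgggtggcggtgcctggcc
Slc25a20, chr8:118243323-118243622, plus strand: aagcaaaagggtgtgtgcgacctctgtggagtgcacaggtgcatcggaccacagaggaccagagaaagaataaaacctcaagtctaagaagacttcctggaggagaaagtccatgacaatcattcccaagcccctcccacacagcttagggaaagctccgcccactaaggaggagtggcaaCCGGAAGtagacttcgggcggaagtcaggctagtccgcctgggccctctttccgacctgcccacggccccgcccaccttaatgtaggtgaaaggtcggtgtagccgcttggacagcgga
Slc25a38, chr8:128712930-128713229, plus strand: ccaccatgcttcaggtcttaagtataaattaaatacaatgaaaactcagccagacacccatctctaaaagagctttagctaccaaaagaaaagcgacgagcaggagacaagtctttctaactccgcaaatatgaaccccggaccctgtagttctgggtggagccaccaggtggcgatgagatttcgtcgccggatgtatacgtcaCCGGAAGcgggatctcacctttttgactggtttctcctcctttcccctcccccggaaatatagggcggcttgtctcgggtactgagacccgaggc
The site begins at base 122, 90, 182 and 206 of the 300. Slc25a14 and Slc25a17, which were not raised in this comparison, hold it as well. The NRF-1 site was in the promoters of Slc25a10, Slc25a12 and Slc25a51 (5.58% of all promoters), of which the latter pair fell, the YY1 site AAGATGGCG in that of Slc25a44 (1.73%), and the ERR site CAAGGTCA in none (1.52%). No member held more than one of the 4 sites. A match describes letters in this window and not binding. No test was made of these counts, and the 33469 promoters are not limited to the genes tested here.

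Without doxorubicin most of the carriers called for a mimic rose. With miR-222 5 members rose and 2 fell, where 8.97% of all genes were called (4.50% higher and 4.47% lower). With miR-455 4 rose and 1 fell, where 4.72% were called (2.47% higher and 2.25% lower), and with both mimics 6 rose and 1 fell, where 7.06% were called (3.67% higher and 3.39% lower). These 3 comparisons share the control mimic libraries. The members' median change was 0.53, 0.61 and 0.47, against 0.06, 0.06 and 0.07 over all genes. For 18, 16 and 8 of the 38 every mimic library lay above every control library, against 21.4%, 16.2% and 10.9% of all genes. The family took 0.303% ± 0.052 (SD, n = 3) of all counts with the control mimic and 0.638% ± 0.126, 0.571% ± 0.178 and 0.588% ± 0.253 with miR-222, miR-455 and both. With doxorubicin its share was 0.460% ± 0.133, 0.687% ± 0.098, 0.535% ± 0.014 and 0.520% ± 0.129 in the same order. These shares are not scaled by TMM. A large part of the family's share was Slc25a4. Without the drug it alone took 0.0669%, 0.0938% and 0.115% of the counts in control libraries 1, 2 and 3. It took 0.339%, 0.344% and 0.181% with miR-222, 0.395%, 0.117% and 0.405% with miR-455, and 0.333%, 0.364% and 0.101% with both.

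The alike libraries stood apart in the muscle ADP/ATP carrier Slc25a4. It was at 601, 723 and 990 CPM with the control mimic, 2685, 2701 and 1322 CPM with miR-222, 3712, 945 and 3892 CPM with miR-455 and 2644, 2921 and 944 CPM with both. Only the miR-455 rise was called (1.89 ± 0.49, edgeR adjusted p = 0.0346), and there replicate 2 overlapped the control. In all 3 mimic groups the close pair was high and the remaining library lower. The changes with miR-222 and both, 1.54 ± 0.49 and 1.49 ± 0.49, were not called (edgeR adjusted p = 0.0525 and 0.0668). With the close pairs summed, 0, 0 and 1 members were called with miR-222, miR-455 and both mimics, the last being Slc25a27. Of all 14579 genes tested in that fit 186, 7 and 134 were called.

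**Figure D3:**
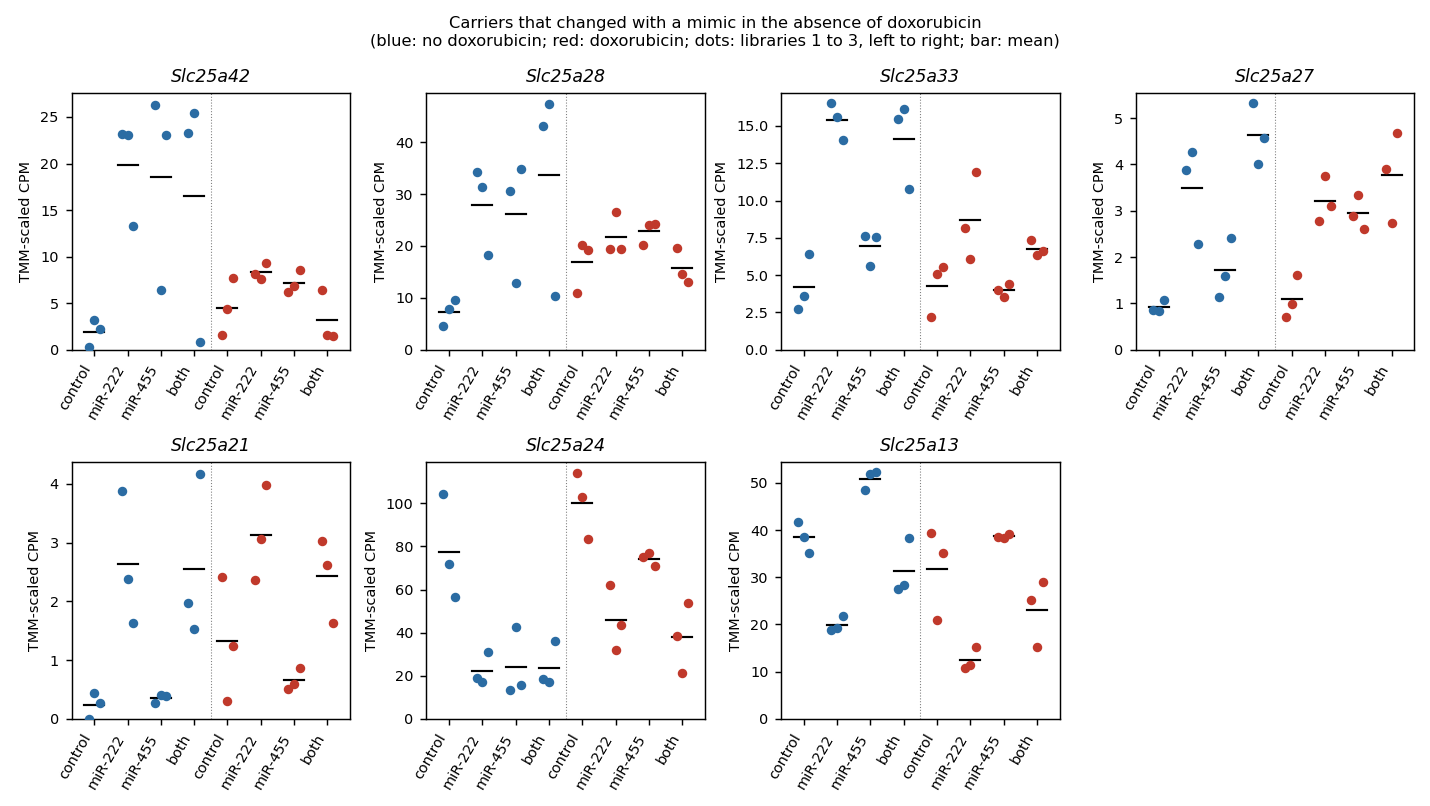
TMM-scaled CPM (vertical axis, linear from 0) of carriers called for a mimic without doxorubicin, in every library; untreated groups in blue, doxorubicin groups in red, bars are group means. For Slc25a28 and Slc25a42 replicate 3 with miR-222 and both mimics, and replicate 2 with miR-455, lie below the other 2 libraries of their group.

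Slc25a24, the calcium-regulated ATP-Mg carrier, fell with each mimic and was the one member lowered in all 3 untreated comparisons. It stood at 104, 71.8 and 56.8 CPM with the control mimic, 18.9, 17.1 and 31.2 CPM with miR-222, 13.6, 42.5 and 15.8 CPM with miR-455 and 18.3, 17 and 36.1 CPM with both. All 9 mimic libraries were below all 3 control libraries. The log2 fold changes were -1.79 ± 0.43, -1.69 ± 0.43 and -1.71 ± 0.43 (edgeR adjusted p = 0.0144, 0.0321 and 0.0213), and each call was lost without either library of the close pair or without control replicate 1, and with miR-455 also without control replicate 2.

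Slc25a42, the mitochondrial carrier of coenzyme A, rose with all 3. Its control mimic libraries were at 0.256, 3.21 and 2.19 CPM. Those with miR-222 were at 23.2, 23.0 and 13.3 CPM, with miR-455 at 26.3, 6.43 and 23.1 CPM and with both at 23.2, 25.4 and 0.870 CPM. The low library of the combination fell within the control range, whereas both single mimics were clear of it. The rises were 3.39 ± 0.94, 3.30 ± 0.94 and 3.13 ± 0.93 (edgeR adjusted p = 0.0306, 0.0487 and 0.0476), and 5 of 6 fits without 1 library lost each call.

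Slc25a28, mitoferrin 2, which brings iron into mitochondria for heme and iron-sulfur clusters, also rose with all 3. From 4.51, 7.81 and 9.56 CPM it reached 34.3, 31.4 and 18.2 CPM with miR-222, 30.7, 12.9 and 34.8 CPM with miR-455 and 43.1, 47.4 and 10.3 CPM with both. No mimic library fell within the control range. The log2 fold changes were 1.94 ± 0.46, 1.84 ± 0.46 and 2.20 ± 0.47 (edgeR adjusted p = 0.0145, 0.0316 and 0.00851), and each was lost without either library of the close pair, and with the single mimics also without control replicate 1 or 2. Its relative Slc25a37 was at 7.54, 9.18 and 4.68 CPM with miR-222, against 7.11, 7.06 and 6.65 CPM, and did not pass with any mimic (0.04, 0.49 and 0.34).

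Slc25a33, a carrier of pyrimidine nucleotides for mitochondrial DNA and RNA synthesis, was at 2.73, 3.57 and 6.39 CPM with the control mimic. It was at 16.5, 15.6 and 14.1 CPM with miR-222 and 15.5, 16.1 and 10.8 CPM with both, so all 6 of these libraries stood above the control. The rises were 1.86 ± 0.36 and 1.74 ± 0.36 (edgeR adjusted p = 0.00428 and 0.00723), and both held in all 6 fits without 1 library. Both calls were lost with the close pairs summed (edgeR adjusted p = 0.0513 and 0.0867). With miR-455 alone the values of 7.62, 5.64 and 7.55 CPM overlapped the control.

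A pair of members under 5 CPM was also called, Slc25a21 and Slc25a27, a brain uncoupling relative, and are named because they passed and not by the rule on level. Slc25a21 was at 0, 0.436 and 0.268 CPM with the control mimic, 3.88, 2.38 and 1.63 CPM with miR-222 and 1.98, 1.52 and 4.17 CPM with both, and stayed at 0.275, 0.415 and 0.395 CPM with miR-455. Its rises were 3.45 ± 0.84 and 3.41 ± 0.84 (edgeR adjusted p = 0.0161 and 0.0201), with no overlap. The miR-222 call was lost without either close library, and the call with both mimics without mimic replicate 1 or control replicate 3. Slc25a27 was at 0.852, 0.833 and 1.07 CPM with the control mimic, 3.88, 4.27 and 2.29 CPM with miR-222 and 5.31, 4.02 and 4.58 CPM with both. It rose by 1.92 ± 0.42 and 2.33 ± 0.42 (edgeR adjusted p = 0.00859 and 0.00303). The first call was lost without either close library, and the second held in every fit without 1 library.

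Slc25a13, the liver-type aspartate-glutamate carrier, was the other member lowered by miR-222. It was at 41.7, 38.6 and 35.2 CPM with the control mimic and 18.7, 19.3 and 21.8 CPM with miR-222, tight in both groups and without overlap. The fall was 0.95 ± 0.24 on the log2 scale (edgeR adjusted p = 0.021), lost without either of the close libraries or without control replicate 1. With miR-455 the libraries were at 48.4, 51.9 and 52.3 CPM, all above the control, and with both mimics at 27.5, 28.3 and 38.4 CPM; neither was called (0.40 ± 0.24 and -0.29 ± 0.24).

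Without doxorubicin other cell type markers moved with the mimics too. The summed cardiomyocyte markers were at 39230 to 51694 CPM with miR-455 and 22391 to 24308 CPM with miR-222, against 23869 to 26310 CPM with the control mimic. The smooth muscle and pericyte markers were at 1199 to 2162 CPM with miR-222, 2680 to 2842 CPM with miR-455 and 1369 to 3084 CPM with both, against 3057 to 3858 CPM. Fibroblast markers with miR-222, at 16883 to 19056 CPM, lay below every control library, at 19523 to 30187 CPM. Endothelial markers were lower in all 3 mimic groups, at 37.2 to 40.2, 33.7 to 44.8 and 21.3 to 29.6 CPM against 47.4 to 67.8 CPM, without overlap. Of the 5 erythroid markers listed 3 were in the table, and they summed to 6.10 to 9.32 CPM with miR-222. That sum was 0 in all 3 control libraries. Slc4a1 alone reached 9.32 CPM, whereas Hbb and Alas2 reached at most 0.0544 and 0.309 CPM in any library. The part of these cell type markers in the carriers' changes was not tested. Of the 16 shuttle enzymes 5, 4 and 3 rose with miR-222, miR-455 and both and none fell, where 4.50%, 2.47% and 3.67% of all genes rose. Got1, the cytosolic aspartate aminotransferase, rose in each (1.59 ± 0.47, 1.81 ± 0.47 and 1.81 ± 0.47, edgeR adjusted p = 0.04, 0.0356 and 0.027), and no regulator of mitochondrial genes passed.

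Under doxorubicin fewer carriers rose with the mimics. With miR-222 2 members rose and 3 fell, where 3.95% of all genes were called (1.59% higher and 2.36% lower). With miR-455 none rose and 2 fell, where 2.50% were called (0.657% higher and 1.85% lower), and with both 4 rose and 2 fell, where 5.55% were called (2.78% higher and 2.78% lower). The members' median change was -0.03, -0.14 and -0.11. These comparisons share the control mimic libraries with doxorubicin, in which replicate 1 had 0 counts for 5 members.

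Slc25a16, a member of the cofactor carriers, was lower with every mimic. It was at 33.4, 30.1 and 31.2 CPM with the control mimic and doxorubicin, 18.1, 19.1 and 18.6 CPM with miR-222, 13.6, 14.7 and 13.6 CPM with miR-455 and 13.9, 13.4 and 17.8 CPM with both. No library of any mimic group reached the lowest control library, and each group was tight. The log2 fold changes were -0.76 ± 0.21, -1.17 ± 0.21 and -1.07 ± 0.21 (edgeR adjusted p = 0.0445, 0.00307 and 0.00388). The call with miR-222 was lost in all 6 fits without 1 library, and the other two held in all 6. Without doxorubicin the control libraries, at 29.0, 28.0 and 16.5 CPM, overlapped the mimic groups and nothing was called.

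Slc25a3 fell with miR-455 under doxorubicin. Its libraries were at 1029, 1064 and 1033 CPM, against 2218, 1980 and 2198 CPM with the control mimic and 2126, 2403 and 2353 CPM with miR-222. Every miR-455 library was below every control library, a fall of 1.03 ± 0.17 on the log2 scale (edgeR adjusted p = 0.00134) that held in all 6 fits without 1 library. With both mimics the level was between, at 1753, 1659 and 1541 CPM, all below the control but not called (-0.37 ± 0.17, edgeR adjusted p = 0.225). Both miR-455 calls rest on 3 libraries that were nearly alike. With those summed to 1 library and the close pairs summed, no gene of the 14303 was called for miR-455 under doxorubicin, and the fall of Slc25a3 was -1.04 with an edgeR adjusted p of 0.745.

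**Figure D4:**
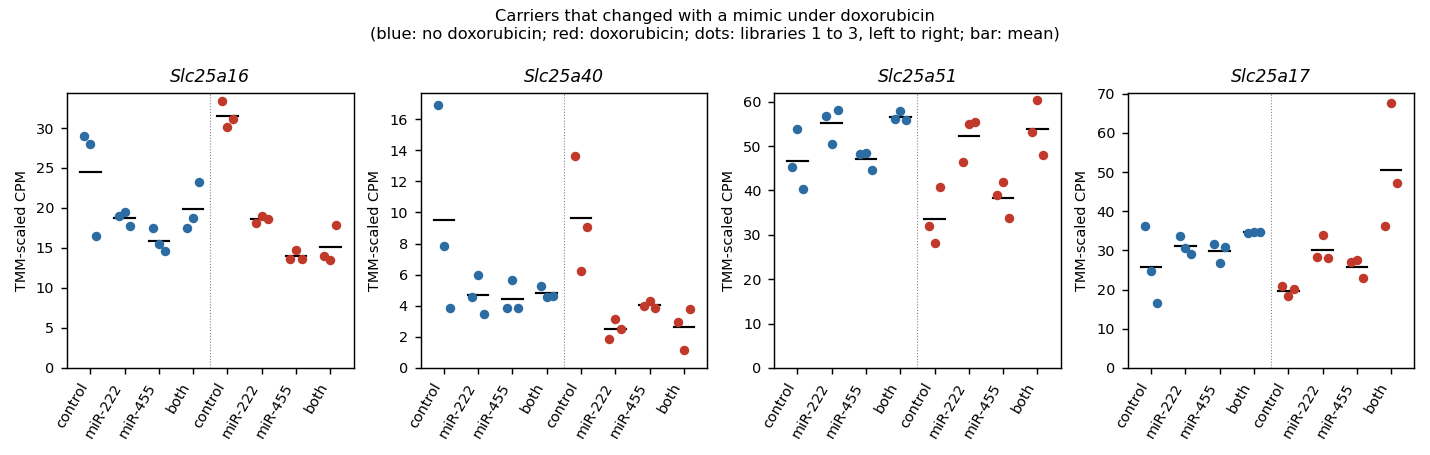
TMM-scaled CPM (vertical axis, linear from 0) of Slc25a16, Slc25a40, Slc25a51 and Slc25a17 in every library; untreated groups in blue, doxorubicin groups in red, bars are group means. With doxorubicin, the 3 control mimic libraries of Slc25a16 lie at 30.1 to 33.4 CPM and the 9 mimic libraries at 13.4 to 19.1 CPM.

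Slc25a13 fell with miR-222 under doxorubicin as it had without, from 39.4, 20.9 and 35.1 CPM to 10.7, 11.5 and 15.2 CPM. The groups did not overlap, and the fall of 1.35 ± 0.25 on the log2 scale (edgeR adjusted p = 0.00279) held in all 6 fits without 1 library and with the close pairs and the miR-455 libraries summed. With miR-455 the values, 38.5, 38.4 and 39.1 CPM, lay at the upper end of the control. With both mimics they were 25.2, 15.3 and 28.9 CPM and not called (-0.46 ± 0.24, edgeR adjusted p = 0.314). The effect of miR-222 on Slc25a13 with the drug minus that without it was -0.40 ± 0.34 and was not called (edgeR adjusted p = 0.757).

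Slc25a40, a relative of the glutathione carrier Slc25a39, was at 13.6, 6.24 and 9.08 CPM with the control mimic and doxorubicin. It was at 1.89, 3.12 and 2.49 CPM with miR-222 and 2.95, 1.12 and 3.81 CPM with both, all below the control. The falls were 1.94 ± 0.49 and 1.87 ± 0.49 on the log2 scale (edgeR adjusted p = 0.0268 and 0.0266), lost in 4 and 3 of 6 fits without 1 library. Slc25a39 itself was at 49.3, 92.6 and 128 CPM, 123, 256 and 164 CPM and 201, 82.2 and 98.6 CPM in the same groups and was not called.

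Slc25a17, the peroxisomal carrier of coenzyme A and related nucleotides, rose with both mimics, from 20.8, 18.2 and 20.2 CPM to 36.3, 67.7 and 47.2 CPM. Every library with both mimics was above every control library, and the rise of 1.35 ± 0.24 (edgeR adjusted p = 0.00179) held in all 6 fits without 1 library. Slc25a51 rose with miR-222, at 46.5, 55.0 and 55.4 CPM, and with both, at 53.2, 60.4 and 48.0 CPM, against 32.0, 28.2 and 40.7 CPM. The rises were 0.64 ± 0.17 and 0.68 ± 0.17 (edgeR adjusted p = 0.0421 and 0.0231), lost in 5 and 3 of 6 fits without 1 library, and its reads are shared as said above. Slc25a27, at or under 4.69 CPM in these groups, rose by 1.53 ± 0.42 and 1.76 ± 0.42 (edgeR adjusted p = 0.0431 and 0.0153), lost in 5 and 2 of 6 fits without 1 library. Slc25a12 rose with both mimics by 1.68 ± 0.41 (edgeR adjusted p = 0.0177), from 16.1, 13.8 and 17.3 CPM to 25.9, 94.9 and 30.2 CPM. All 3 libraries were above the control, but replicate 2 was far above the other two, and without it the change was 0.84 with an edgeR adjusted p of 0.197.

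Cell type markers also differed under doxorubicin. Replicate 2 with both mimics, the highest library of Slc25a12 and Slc25a17 in its group, held 64061 CPM of cardiomyocyte markers, against 24210 and 22537 CPM in replicates 1 and 3. Endothelial markers were at 24.2 to 25.6 CPM with miR-222, 34.2 to 35.5 CPM with miR-455 and 13.3 to 27.7 CPM with both, all below the 36.8 to 43.8 CPM of the control mimic. Their part in the carriers' changes was not tested. Without replicate 2 the rise of Slc25a17 with both mimics was still called.

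With the close pairs and the miR-455 libraries summed, Slc25a13 with miR-222 and Slc25a16 and Slc25a17 with both mimics were the members still called under doxorubicin.

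Among the carriers' partners under doxorubicin, Timm22, the channel that inserts carriers into the inner membrane, rose with miR-222, miR-455 and both by 0.91 ± 0.24, 1.22 ± 0.24 and 1.25 ± 0.24 (edgeR adjusted p = 0.033, 0.00614 and 0.00304), and Timm8a1, a small chaperone of the same route, by 1.49 ± 0.37, 1.62 ± 0.37 and 1.57 ± 0.37 (edgeR adjusted p = 0.0268, 0.0209 and 0.0152). The other 10 import genes gave no call in these comparisons. Of the 19 other transporters 2, 3 and 1 fell, where 2.36%, 1.85% and 2.78% of all genes fell. Mpc2, a subunit of the pyruvate carrier, fell with miR-455 (-2.01 ± 0.50, edgeR adjusted p = 0.0348) and with both (-2.82 ± 0.52, edgeR adjusted p = 0.00217).

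Whether a mimic changed the response to doxorubicin was tested as the drug effect with the mimic minus that with the control mimic. No carrier passed this test with miR-222, miR-455 or both, where 0.0489%, 0% and 0.0559% of all genes were called, and 4, 9 and 14 members had an unadjusted p under 0.05 in edgeR, where 9.82%, 10.6% and 14.0% of all genes did. DESeq2 called 0, 2 and 2 members, where 203 of 13981, 141 of 13627 and 368 of 15058 genes were called. The members' median difference was -0.48, -0.68 and -0.81, against -0.07, -0.07 and -0.10 over all genes, and all 3 comparisons share the control mimic libraries. The mimics were not compared with each other in this way.

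Differences that DESeq2 called and edgeR did not are given for Slc25a3 and Slc25a28. For Slc25a3 the drug effect was 1.35 with the control mimic and 0.28 with miR-455. The difference of -1.07 ± 0.24 had an edgeR adjusted p of 0.158 and a DESeq2 adjusted p of 0.000248, and with both mimics the difference was -0.81 ± 0.24 (edgeR adjusted p = 0.156; DESeq2 adjusted p = 0.0142). For Slc25a28 the drug effect was 1.21 with the control mimic and -1.09 with both mimics, a difference of -2.30 ± 0.64 (edgeR adjusted p = 0.134; DESeq2 adjusted p = 0.0302). Each of these differences counts an untreated close pair as separate libraries. That of Slc25a3 with miR-455 also counts the 3 nearly alike treated libraries so. DESeq2 was not run on summed libraries, so its small p may not measure a spread between cultures. The 4 libraries with the fewest genes are replicate 1 of both control mimic groups, replicate 3 of the untreated combination and replicate 2 of the treated one. Without them edgeR called 8 members lower in the response with both mimics, where 1589 of 14459 genes were called. The 8 were Slc25a3, Slc25a10, Slc25a11, Slc25a23, Slc25a28, Slc25a29, Slc25a34 and Slc25a42. In that fit the untreated combination was only its close pair, counted as separate libraries. With all libraries kept and the close pairs summed, edgeR called 0 of 14579 genes for this response. For Slc25a24 the difference with miR-455 was 1.26 ± 0.59 and was not called (edgeR adjusted p = 0.456).

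**Figure D5:**
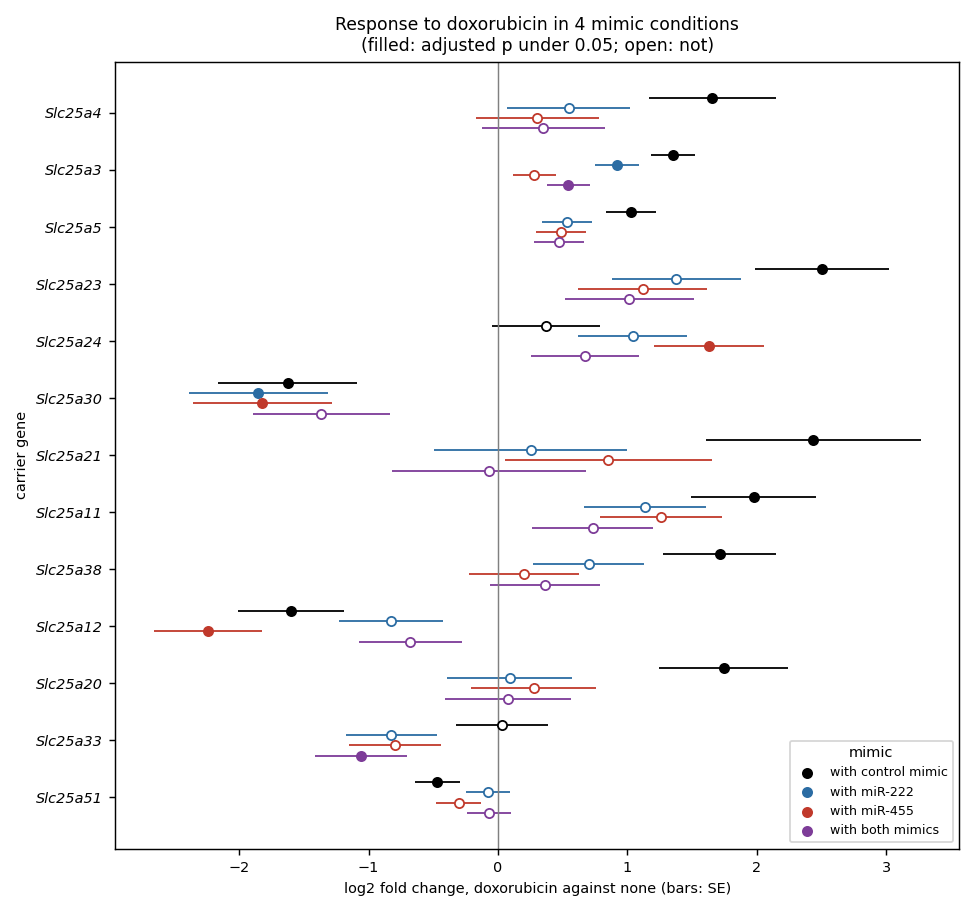
Log2 fold change with doxorubicin (horizontal axis) of selected SLC25 members in the 4 mimic conditions, each point a comparison of 3 libraries against 3 with bars of 1 SE from edgeR. For Slc25a3 the value is 1.35 with the control mimic and 0.28 with miR-455, and that difference had an edgeR adjusted p of 0.158.

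Of the 38 carriers 17 were called in none of the 10 pairwise comparisons, a count that was not made over all genes. They include the citrate carrier Slc25a1, the ornithine carriers Slc25a2 and Slc25a15, mitoferrin 1 (Slc25a37), the glutathione carrier Slc25a39, the S-adenosylmethionine carrier Slc25a26 and the branched-chain amino acid carrier Slc25a44. Some of them had large but scattered values. Slc25a22, a glutamate carrier with shared reads, was at 3.24, 2.66 and 23.6 CPM with the control mimic and at 110, 112 and 38.1 CPM with miR-222, a change of 3.14 ± 1.28 that did not pass (edgeR adjusted p = 0.121) although the groups did not overlap. Slc25a34, a carrier whose substrate is not settled, was at 0.383, 0.198 and 0.670 CPM and at 7.47, 8.23 and 1.82 CPM in the same groups (3.80 ± 1.42, edgeR adjusted p = 0.0947). A value that missed the threshold does not show that a carrier was unchanged.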

How the data were processed

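The authors' deposited table holds expected counts per gene symbol for polyA RNA of 24 libraries. Per the submitters' processing notes Salmon, DESeq2 and the rat build Rnor_6.0 were used; their versions and roles are not stated. A filter is named for the table but not described. Rounding to whole numbers affected 7.35% of values. In R 4.3.3, edgeR 4.0.16 kept 14303 genes (filterByExpr by group), scaled them by TMM and fitted 1 mean per group (8 groups, 24 libraries). Each comparison used the quasi-likelihood F test, with Benjamini-Hochberg adjustment over all genes tested and a threshold of 0.05. Each SE was derived from the log2 fold change and F. The fit was tested on simulated counts. Members, roles and gene lists were chosen with earlier results of these data known. Values per library are given for called members among the 5 highest or 5 lowest changes if the higher group reached 5 CPM, and always for Slc25a1, Slc25a3, Slc25a4, Slc25a5, Slc25a11, Slc25a12, Slc25a13, Slc25a20, Slc25a28 and Slc25a37; other members with values were chosen after they were seen. Of the marker lists, endothelial genes summed to 13.3 to 67.8 CPM and macrophage and leukocyte genes to 7.30 to 24.5 CPM. Alternatives were DESeq2 1.42.0, its size factors in edgeR, other filters, no mitochondrially encoded genes, a replicate block, only the groups compared, leaving out libraries and, chosen after seeing the data, sums of alike libraries. Single genes that are counted among the members or lists but not described are not reported here.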

Additional observations from a re-analysis of the deposited data

How the results depend on the processing

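Of 1376 values of the 69 called results of single members under the alternatives, 1098 kept their call, 278 kept the direction without passing and 0 reversed; members that were not called were not followed this way. The number of members called depended more on the setting. Fitting only the groups compared gave 6 for doxorubicin with the control mimic, and 13, 12 and 0 with miR-222, miR-455 and both. Over all genes it called 1437 of 12898, 4785 of 13278, 5419 of 13272 and 5 of 13028. Without doxorubicin it gave 4, 0 and 0 members for miR-222, miR-455 and both, where 485 of 13098, 2 of 12880 and 0 of 12946 genes were called. With doxorubicin it gave 0 for miR-222 and 0 for both, where 76 of 13150 and 2 of 12996 genes were called. The averaged comparison uses all groups and was not run so. Leaving out the 4 libraries of fewest genes gave 14, 12 and 12 for doxorubicin with miR-222, miR-455 and both, where 4906, 5545 and 4757 of 14459 genes were called. It gave 16 and 18 for miR-222 and both without the drug, where 2832 and 3714 genes were called. It gave 8 for miR-222 with the drug and 8 for the response with both, where 1211 and 1589 genes were called. In all these fits the untreated combination was only its close pair of alike libraries. DESeq2 called 7 and 6 for doxorubicin with miR-222 and both, where 2730 of 14340 and 2989 of 15058 genes were called. It called 14, 9 and 13 for the mimics without the drug, where 2345 of 14699, 1916 of 13981 and 1871 of 15058 genes were called. For the responses with miR-455 and both it called 2 and 2, where 141 of 13627 and 368 of 15058 genes were called. With no filter on low counts the counts were 1 for doxorubicin with both and 2 for miR-222 with the drug. Of all 18678 genes then tested, 1848 and 447 were called.

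Chosen after seeing the data, summing the close pairs gave 2 and 1 for doxorubicin with miR-455 and both, where 1265 and 1007 of 14579 genes were called. It gave 0, 0 and 1 for the mimics without the drug, where 186, 7 and 134 genes were called. It gave 1 for miR-222 with the drug, where 366 genes were called. Summing the miR-455 libraries under doxorubicin too lowered the number of all genes called in every pairwise comparison and in the averaged one. In none of them were more members called than with the close pairs summed alone. That fit leaves 1 library in a group.

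The replicate block gave 1 for doxorubicin with both, 2 for miR-455 without the drug and 2 for miR-222 with it. Of all 14303 genes 1853, 377 and 431 were called there. The replicate numbers did not pair the libraries: correlations of same-numbered deviations ran from -0.581 to 0.453, and 6 of 24 libraries correlated best with their own number.

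Leaving out 1 library at a time gave 6 to 11 for doxorubicin with the control mimic (6 without untreated replicate 1), 2 to 4 where miR-222 was given, 2 to 5 for miR-455 (2 without untreated replicate 1 or 3), 1 to 6 with both (1 without treated replicate 3 or untreated replicate 1, 6 without untreated replicate 3) and 15 to 19 averaged. Without the drug it gave 1 to 11 for miR-222 (1 without either close library, 3 and 11 without control replicates 1 and 3), 0 to 9 for miR-455 (0 without a close library or control replicate 1 or 2, 8 without mimic replicate 2, 9 without control replicate 3) and 2 to 16 for both (2 and 3 without the close libraries, 16 without mimic replicate 3, 4 without control replicate 1). With the drug it gave 1 to 4 for miR-222 (1 without any mimic library or control replicate 1, 2 without control replicate 2), 2 to 2 for miR-455 and 3 to 7 for both (3 without mimic or control replicate 2). For the responses it gave 0 to 0, 0 to 1 (1 without untreated miR-455 replicate 2) and 0 to 4 (4 without untreated replicate 3 of both mimics). In those last 2 fits 56 of 14619 and 894 of 14591 genes were called. Each left only the close pair in its untreated mimic group. The fits that gave 8 for miR-455 and 16 for both without the drug did so too. The number of all genes called also moved. For both mimics without the drug it was 267 of 14631, 284 of 14619 and 2718 of 14591 without mimic replicates 1, 2 and 3. For miR-222 without the drug it was 300 of 14616 and 302 of 14617 without the close libraries, and 1644 of 14627 without control replicate 3. The same fits for miR-455 called 16 of 14627, 41 of 14621 and 1163 of 14627. Doxorubicin with the control mimic gave 2892 of 14582 without untreated replicate 1.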
